A study of Homo sapiens with 36 samples.

Results

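A549 cells that had been kept in 1% cigarette smoke extract (CSE) for 5 weeks were compared here with A549 cells kept in 1% CSE for 3 weeks, across every gene that the array names with a single symbol. A549 is a human line grown from a lung adenocarcinoma and used as a model of alveolar epithelium, and CSE is culture medium through which cigarette smoke was bubbled. The members of the comparison were the 3 arrays titled CSE 1% at 5 weeks and the 3 titled CSE 1% at 3 weeks, which are 6 of the 36 Human Gene 1.0 ST arrays of the series, and 18417 genes that were read from 33297 transcript clusters, the probe sets that each cover one transcript region. The other 30 arrays held CSE 1% cells at 1 week, and CSE 5%, CSE 10% and control cells without CSE at 1, 3 and 5 weeks, with 3 arrays per group. All cells were of the same line, were deprived of serum before exposure, and were then grown in medium with a low level of serum that was changed daily, with subculture every week, so that the weeks differ in the length of culture as well as in the length of exposure. Replicates came from independent experiments, in the words of the study. All values are the log2 values that the authors deposited, on which a difference of 1 is a doubling.

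Cigarette smoke holds oxidants, aldehydes and aryl hydrocarbons, and in airway epithelium it is known to induce chemokines, detoxifying enzymes and mucins. Immediate early genes, among them the nuclear receptors of the NR4A family, JUN and EGR1, encode transcription factors that are induced within minutes by growth factors and stress through the ERK and other kinase pathways. Small nucleolar and small Cajal body RNAs guide the chemical modification of ribosomal and spliceosomal RNA, and the mRNAs of most histone genes lack a poly(A) tail and are made mainly during DNA replication.

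The 6 arrays correlated closely over all transcript clusters. Correlations lay between 0.985 and 0.993 for the 6 pairs within a week and between 0.977 and 0.991 for the 9 pairs across weeks. On the first principal component of all 36 arrays, replicates 1 to 3 scored -27.7, 2.72 and 8.80 at 5 weeks and 39.3, 13.1 and 2.14 at 3 weeks. The weeks therefore overlapped on it, and the replicates 1 lay furthest apart. On the second component they scored -18.2, -17.1 and -17.3 at 5 weeks and -15.9, -14.7 and -12.1 at 3 weeks, without overlap. The epithelial markers EPCAM and KRT8 had means of 10.5 and 13.4 at 5 weeks and of 10.8 and 13.4 at 3 weeks. The 8 markers of type II cells had means of 5.49 (the factor NKX2-1) to 8.74 (the lipid transporter ABCA3) at 5 weeks and of 5.52 (LAMP3) to 8.86 (ABCA3) at 3 weeks, with the surfactant gene SFTPC at 6.23 at 5 weeks and 6.07 at 3 weeks. Levels of different probe sets are not comparable, so no marker was called present or absent. None of the 42 markers of type II cells, type I cells, epithelium, fibroblasts, endothelium, blood cells and of basal and ciliated airway cells passed the test between 5 and 3 weeks. The 8 fibroblast markers summed to 46.1 at 5 weeks and 45.7 at 3 weeks, and the 6 epithelial markers to 69.1 and 70.0. For the control cells at 5 weeks the labels conflict: titles and short codes give 5 weeks, while the descriptions of the 3 arrays and the source names of 2 of them give 3 weeks. These 3 arrays also stood apart, with scores of -111 to -74.6 on the first principal component, against -61.2 to 47.1 for the other 33 arrays. They were used as titled, and each difference from control cells rests on them. The differences from CSE 5% and CSE 10% cells do not use them, although the errors and p values, from 1 fit of all arrays, do. With only the 12 arrays compared, 4 genes had a change different from CSE 5% cells and 30 from CSE 10% cells, against 4 and 31 in the fit of all arrays.

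A gene was called where its log2 fold change, 5 weeks minus 3 weeks, lay above 1 or below -1 and its B value, the log-odds that it differs, exceeded 0. By this rule 57 of the 18417 genes were higher at 5 weeks (0.309%) and 7 were lower (0.038%). The 7 lower genes were FCGBP, NR4A2, NR4A1, DHRS9, KLF4, RAB3B and PGM2L1. Of the 57 higher genes, 51 encode small non-coding RNAs or histones, and the other 6 were CCL2, LIMD1-AS1, OR4K2, RMRP, UBTFL1 and UGT2B10. None of these 64 genes had overlapping values between the 3 arrays at 5 weeks and the 3 at 3 weeks. They were chosen on the same arrays, so this separation is no further support for the calls. For single genes and members of gene lists the test was a Benjamini-Hochberg adjusted p under 0.05 from limma, which 503 genes passed as higher (2.73%) and 592 as lower (3.21%), around a median change of -0.01. Higher genes were 45.9% of those that passed, and 63.6% (707 higher and 405 lower) when arrays were centred on housekeeping genes. As whole cultures were measured, fewer cells with a transcript and less of it per cell cannot be told apart. Without replicate 3 at 5 weeks the count of lower called genes was 19, and without replicate 3 at 3 weeks it was 14. The counts past the adjusted p moved as well: without replicate 2 at 3 weeks 297 genes were higher and 361 lower, without replicate 1 at 3 weeks 298 were higher, and without replicate 3 at 5 weeks 388 were lower. The plot of fold change against adjusted p shows the called genes to be mostly small RNA and histone genes on the right and protein-coding genes on the left.

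**Figure D1:**
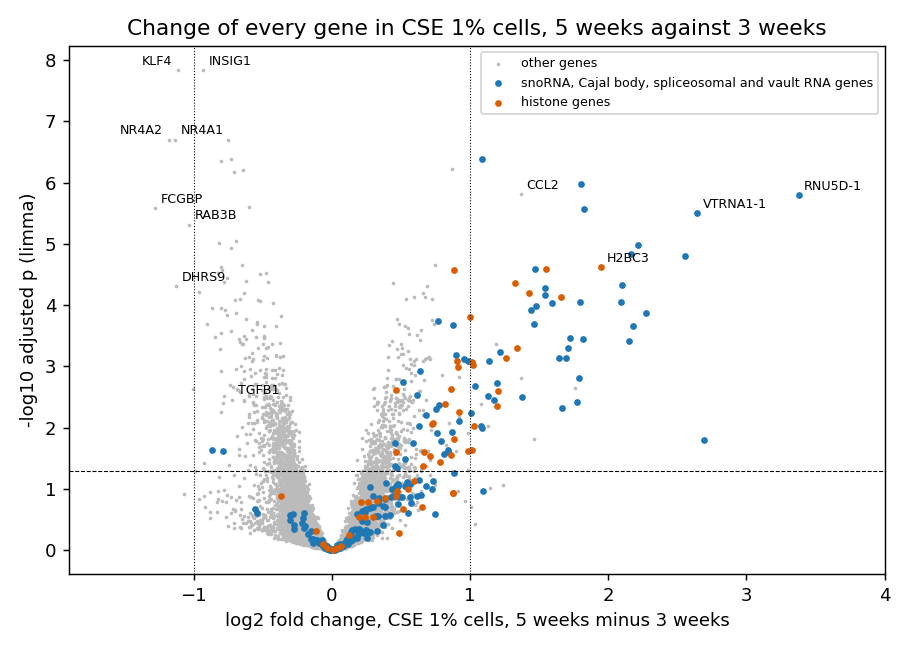
Change of each of 18417 genes in CSE 1% cells: log2 fold change at 5 weeks minus 3 weeks on the x axis, -log10 of the limma adjusted p on the y axis, with dotted lines at a change of 1 and a dashed line at an adjusted p of 0.05. Small RNA genes (blue) and histone genes (orange) make up most of the points beyond 1, while NR4A1, NR4A2 and KLF4 lie beyond -1.

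The steepest falls among transcription factors were in the NR4A family, orphan nuclear receptors of the immediate early class. NR4A1 had values of 8.78, 8.75 and 8.72 on the 3 arrays at 5 weeks, against 9.78, 9.95 and 9.92 at 3 weeks. The groups did not overlap, and NR4A1 fell by 1.13 ± 0.11 (SE of the fit, n = 3 each, adjusted p = 2e-07). NR4A2 measured 8.94, 9.17 and 9.11 at 5 weeks, against 10.27, 10.28 and 10.20 at 3 weeks, a fall of 1.18 ± 0.11 (adjusted p = 2e-07) with no overlap. The third member, NR4A3, which was picked out after its values were seen, had values of 6.44, 6.62 and 6.52 at 5 weeks and of 7.59, 7.25 and 7.21 at 3 weeks (log2 fold change -0.82 ± 0.11, adjusted p = 2.94e-05). All members of the family were therefore lower on every array at 5 weeks. From 1 to 3 weeks NR4A1 had already fallen by 0.61 (adjusted p = 0.000101 in limma). Over that interval NR4A2 changed by -0.15 (adjusted p = 0.398) and NR4A3 by 0.05 (adjusted p = 0.815).

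KLF4, a zinc finger factor of epithelial differentiation and growth arrest, had values of 8.19, 8.13 and 8.22 at 5 weeks, against 9.23, 9.29 and 9.36 at 3 weeks (log2 fold change -1.11 ± 0.09, adjusted p = 1.45e-08). The arrays of each week lay within a narrow range, far from those of the other week. KLF4 had already fallen by 0.51 from 1 to 3 weeks (adjusted p = 9.53e-05 in limma). JUN, a subunit of the AP-1 transcription factor, measured 9.06, 8.91 and 8.77 at 5 weeks and 9.72, 9.67 and 9.77 at 3 weeks, and fell by 0.80 ± 0.11 (adjusted p = 2.36e-05). EGR1, a zinc finger factor induced by ERK signalling, measured 8.62, 8.48 and 8.24 at 5 weeks and 9.31, 9.16 and 9.22 at 3 weeks, and fell by 0.78 ± 0.17 (adjusted p = 0.00398). Neither gene had an array at 5 weeks that reached the level of 3 weeks. The stress factor ATF3 fell by 0.80 (adjusted p = 0.00011), KLF6, a relative of KLF4, by 0.70 (adjusted p = 6.63e-07), and FOS, the partner of JUN in AP-1, by 0.43 (adjusted p = 0.03; chosen after its values were seen). FOS passed in 8 of 16 alternatives and in 1 of the 6 fits without 1 array, the one without replicate 1 at 5 weeks, and its highest adjusted p was 0.101.

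Of 21 immediate early genes measured, 8 were lower at 5 weeks and none higher, where 3.21% and 2.73% of all genes were. The median change was -0.20 over the list against -0.01 over all genes. The count was 7 or 8 in every alternative run for the lists. The promoter of EGR1 is shown because it holds a serum response element core, an element through which ERK signalling is known to act on this gene, 105 bases before the start. The letters in capitals, in that order, occur on either strand in 0.0342% of 35116 RefSeq promoter windows of 300 bases, and in 1 of the 7 promoters given for the lower immediate early genes. The sequence is the 250 bases before the start of EGR1, chr5:138465229-138465478 on the plus strand of GRCh38.p14, from RefSeq, with the match in capitals.
EGR1 promoter: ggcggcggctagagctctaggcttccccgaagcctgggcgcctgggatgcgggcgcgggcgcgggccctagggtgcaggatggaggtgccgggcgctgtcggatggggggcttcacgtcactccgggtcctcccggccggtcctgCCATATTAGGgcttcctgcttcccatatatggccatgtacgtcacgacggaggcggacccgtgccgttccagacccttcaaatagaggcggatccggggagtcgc

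The same genes were read in the other cells between the same weeks, which share no array with CSE 1% cells. NR4A1 changed by -1.13 in CSE 1% cells, against 0.13 in CSE 5%, 0.15 in CSE 10% and 0.27 in control cells. Its differences in change were -1.26 from CSE 5% cells (adjusted p = 7.36e-05), -1.29 from CSE 10% cells (adjusted p = 9.5e-06) and -1.41 from control cells (adjusted p = 3.6e-06), all by an interaction term in limma. NR4A1 averaged 8.75 ± 0.03 at 5 weeks and 9.88 ± 0.09 at 3 weeks in CSE 1% cells (SD, n = 3 each). It averaged 7.71 ± 0.02 at 5 weeks and 7.58 ± 0.09 at 3 weeks in CSE 5% cells, 7.65 ± 0.06 and 7.50 ± 0.01 at these weeks in CSE 10% cells, and 10.30 ± 0.07 and 10.02 ± 0.19 at these weeks in control cells. At 3 weeks CSE 1% and control cells differed by -0.14 (adjusted p = 0.523) and at 5 weeks by -1.55 (adjusted p = 9.7e-12), so that by 5 weeks the CSE 1% cells lay between control cells and the cells of the higher concentrations.

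The means of NR4A2 and KLF4 at 5 weeks also lay between those of control cells and of the cells at higher concentrations. NR4A2 differed in its change by -1.22 from CSE 5% (adjusted p = 0.000164), by -1.50 from CSE 10% (adjusted p = 1.49e-06) and by -0.76 from control cells (adjusted p = 0.00227). At 5 weeks NR4A2 averaged 9.07 ± 0.12 in CSE 1% cells, against 8.58 ± 0.21 in CSE 5%, 8.88 ± 0.15 in CSE 10% and 10.04 ± 0.30 in control cells. The arrays of CSE 10% and CSE 1% cells overlapped, as the plot of the lower genes shows. KLF4 differed in its change by -0.97 from CSE 5%, by -1.38 from CSE 10% and by -0.83 from control cells, with a highest adjusted p of 0.000257. KLF4 averaged 8.18 ± 0.05 in CSE 1% cells at 5 weeks, between 7.55 ± 0.04 in CSE 5% or 7.43 ± 0.12 in CSE 10% and 8.76 ± 0.10 in control cells. The change of JUN differed by -0.60 from CSE 5% cells (adjusted p = 0.172), by -0.67 from CSE 10% cells (adjusted p = 0.0407) and by -1.60 from control cells (adjusted p = 1.05e-06), where JUN rose by 0.80. The change of EGR1 differed by -0.71 from CSE 5% cells (adjusted p = 0.479), by -1.06 from CSE 10% cells (adjusted p = 0.0381) and by -1.93 from control cells (adjusted p = 3.03e-05), where EGR1 rose by 1.15. The differences from CSE 5% cells did not pass.

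**Figure D2:**
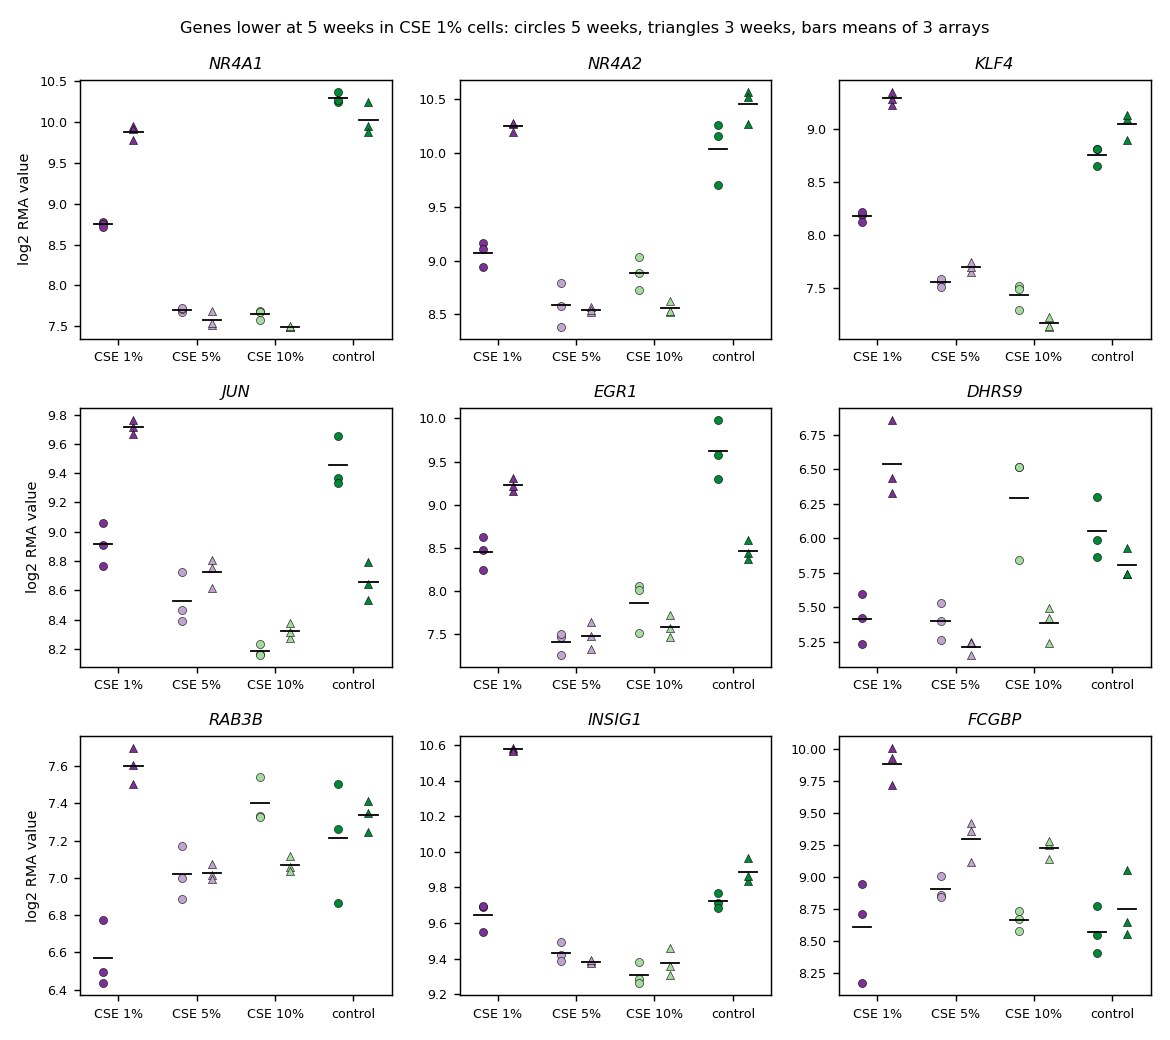
Log2 RMA value of 9 genes lower at 5 weeks in CSE 1% cells (y axis) in CSE 1%, CSE 5%, CSE 10% and control cells (x axis); circles are arrays at 5 weeks, triangles arrays at 3 weeks and bars the mean of 3 arrays. NR4A1 averaged 8.75 at 5 weeks and 9.88 at 3 weeks in CSE 1% cells, with smaller shifts in the other cells.

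In total 354 genes had a change greater in CSE 1% than in control cells by the rule of calls (1.92%) and 27 a smaller one (0.147%), and 27.2% of genes differed by the adjusted p. The count of 354 was unstable: it was 976, 204 and 133 without CSE 1% replicates 1, 2 and 3 at 5 weeks, and 704, 217 and 159 without those at 3 weeks. It was 99, 541 and 592 without control replicates 1, 2 and 3 at 5 weeks, and 175 and 228 without control replicates 1 and 3 at 3 weeks. In control cells 28.3% of genes were higher and 27.8% lower at 5 weeks by the adjusted p, and these changes enter the difference. The change differed from that in CSE 5% cells for 0.217% of genes and from that in CSE 10% cells for 0.586%. A set of 21 genes changed in CSE 1% cells and differed from all of the other cells in the same direction, a choice made after the values were seen. It held 19 lower genes, NR4A2, NR4A1, NR4A3, KLF4, DHRS9, RAB3B, INSIG1, GEM, SMOX, BHLHE40, NPC1, PLAUR, ACSS2, PLEK2, PRDM10, SLC20A1, C6orf141, BMERB1 and TSPAN5, and 2 higher genes, OVGP1 and PRR15L. With the mean of CSE 5% and CSE 10% cells in place of each, and control cells as before, the set held 38 genes. Of these 31 were lower and 7 higher. Among the 19 lower genes above, some had risen from 1 to 3 weeks, such as PLEK2 (0.61) and PRDM10 (0.81). Others had fallen over that interval, such as GEM (-0.86).

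RAB3B, a small GTPase of regulated secretion, measured 6.50, 6.77 and 6.44 at 5 weeks, against 7.50, 7.60 and 7.70 at 3 weeks (log2 fold change -1.03 ± 0.12, adjusted p = 4.89e-06). DHRS9, a short-chain dehydrogenase that acts on retinoids and steroids, measured 5.42, 5.23 and 5.59 at 5 weeks, against 6.86, 6.44 and 6.33 at 3 weeks (-1.13 ± 0.16, adjusted p = 4.93e-05). Neither gene overlapped between weeks. DHRS9 rose by 0.90 in CSE 10% cells between the same weeks (adjusted p = 0.000901), and its change in CSE 1% cells differed from that by -2.03 (adjusted p = 4.38e-06). BHLHE40, a clock-linked repressor, fell by 0.75 (adjusted p = 2e-07), PLAUR, the urokinase receptor, by 0.73 (adjusted p = 4.15e-07), SMOX, spermine oxidase, by 0.76 and GEM, a GTP-binding protein of the immediate early class, by 0.80. PRR15L rose by 0.74 in CSE 1% cells (adjusted p = 0.000202) and fell by 0.45 in CSE 10% cells (adjusted p = 0.0229).

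**Figure D3:**
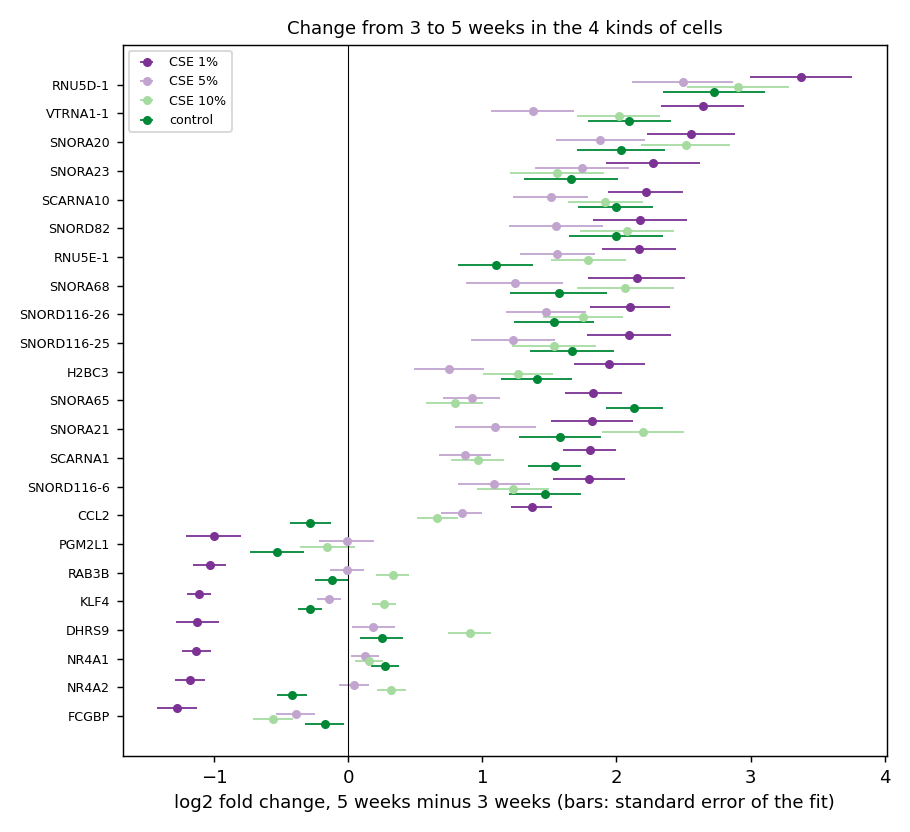
Log2 fold change at 5 weeks minus 3 weeks (x axis, bars the standard error of the fit) of the named genes called in CSE 1% cells (y axis), in CSE 1%, CSE 5%, CSE 10% and control cells. The small RNA genes and H2BC3 lie to the right of 0 in all of the cells, whereas NR4A1 lies at -1.13 in CSE 1% cells and between 0.13 and 0.27 in the others.

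Ligands and feedback regulators of the EGF receptor and ERK pathway were among the lower genes. Of 16 EGF receptors and ligands, 5 were lower and none higher, where 3.21% and 2.73% of all genes were. In control cells 8 of the 16 were lower and 3 higher, where 27.8% and 28.3% of all genes were. The median change of the list was -0.24 in control cells and -0.08 in CSE 1% cells. In CSE 5% cells none passed, and in CSE 10% cells 2 were lower, where 2.67% of all genes were. The ligand HBEGF measured 7.90, 7.83 and 7.82 at 5 weeks and 8.68, 8.62 and 8.52 at 3 weeks, with no overlap (-0.76 ± 0.12, adjusted p = 0.000143). The ligand EREG fell by 0.64, the inhibitor ERRFI1 by 0.38, the receptor EGFR by 0.35 and the ligand TGFA, named after its values were seen, by 0.38 (adjusted p = 0.0486). TGFA passed in 6 of 16 alternatives and in 1 of the 6 fits without 1 array, the one without replicate 2 at 5 weeks, and its highest adjusted p was 0.202. In the fit with only the 6 arrays 1 of the 16 genes was lower. Of 18 ERK feedback genes, 4 were lower, among them the inhibitor SPRY4 at -0.64 and the phosphatase DUSP4 at -0.54, and the transcription factor ETV1 was higher at 0.35; without replicate 3 of either week 2 were lower. ETV1 did not pass without replicate 2 at 5 weeks (adjusted p = 0.0698) or replicate 3 at 3 weeks (adjusted p = 0.0631). In control cells 4 of the 18 ERK feedback genes were lower and 3 higher. None of them passed in CSE 5% cells, and 1 was higher in CSE 10% cells, where 2.41% of all genes were. PTGS2, the inducible cyclooxygenase, measured 9.32, 9.63 and 9.86 at 5 weeks and 10.64, 10.50 and 10.27 at 3 weeks (-0.86 ± 0.13, adjusted p = 0.000111). It had been higher still at 1 week, at 11.54, 11.57 and 11.66.

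Some genes of sterol and lipid synthesis were lower. INSIG1, which holds the SREBP transcription factors in the endoplasmic reticulum and is itself one of their targets, measured 9.55, 9.69 and 9.69 at 5 weeks, against 10.59, 10.57 and 10.57 at 3 weeks (-0.93 ± 0.08, adjusted p = 1.45e-08). Its arrays at 3 weeks stood 0.69 above control cells of that week (adjusted p = 1.38e-07), and those at 5 weeks stood at -0.08 from control cells of that week (adjusted p = 0.386). At 1 week INSIG1 averaged 9.93, and it rose by 0.65 from 1 to 3 weeks (adjusted p = 4.22e-07 in limma). The change of INSIG1 differed by -0.98 from CSE 5%, by -0.87 from CSE 10% and by -0.77 from control cells, with a highest adjusted p of 0.000125. Of 22 cholesterol synthesis genes, 7 were lower and none higher, where 3.21% and 2.73% of all genes were. Their median was -0.27, and 2 were lower in the fit with only the 6 arrays. HMGCS1, which makes the HMG-CoA of the pathway, had values of 10.83, 11.17 and 11.17 at 5 weeks and of 11.94, 11.72 and 11.48 at 3 weeks (-0.66 ± 0.13, adjusted p = 0.00184). CYP51A1, the lanosterol demethylase, fell by 0.57 (adjusted p = 0.00398). In control cells 10 of these 22 genes were lower and 1 higher, where 27.8% and 28.3% of all genes were. In CSE 5% cells none passed in either direction, and in CSE 10% cells 1 was lower, where 2.67% of all genes were. The change of HMGCS1 differed from that in control cells by -0.10 (adjusted p = 0.716) and that of CYP51A1 by 0.21 (adjusted p = 0.381), neither past the threshold.

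Of 26 genes of fatty acid synthesis and lipid storage, 7 were lower and 1 higher, where 3.21% and 2.73% of all genes were. In control cells 12 of the 26 were lower and 2 higher, where 27.8% and 28.3% of all genes were. The median change of the list was -0.12 in control cells and -0.16 in CSE 1% cells. In CSE 5% cells none passed, and in CSE 10% cells 3 were lower and 1 higher, where 2.67% and 2.41% of all genes were. ACSS2, the cytosolic acetyl-CoA synthetase, fell by 0.69 ± 0.09 (adjusted p = 9.06e-06), with values of 9.62, 9.43 and 9.26 at 5 weeks and of 10.08, 10.13 and 10.19 at 3 weeks. The fatty acid synthase FASN fell by 0.78 ± 0.16 (adjusted p = 0.00302), the glycerol-phosphate acyltransferase GPAT3 by 0.80 and the phosphatidate phosphatase LPIN1 by 0.47. NPC1, which exports cholesterol from lysosomes, fell by 0.73 ± 0.09 (adjusted p = 1.17e-05). The change of ACSS2 and of NPC1 differed from that in each of the other cells, with highest adjusted p of 0.00367 and 0.0173.

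**Figure D4:**
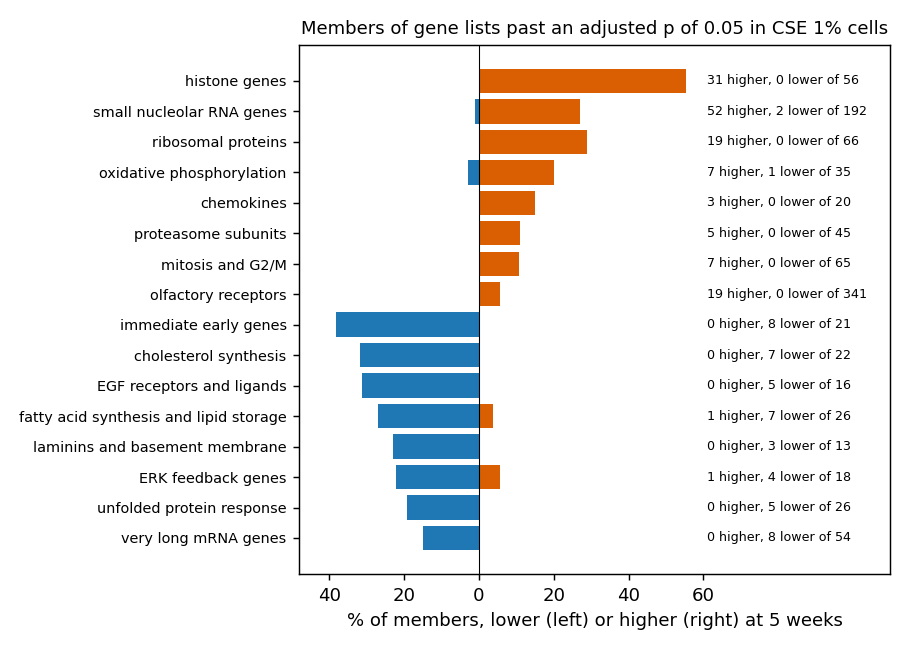
Share of the measured members of 16 gene lists (y axis) past an adjusted p of 0.05 in CSE 1% cells (x axis, percent of members; lower at 5 weeks to the left, higher to the right), with the counts beside each bar. Histone genes (31 of 56) lead the higher side and immediate early genes (8 of 21) the lower side. Over all genes 2.73% were higher and 3.21% lower.

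Of 29 secretory and mucin genes, 3 were lower and 1 higher, where 3.21% and 2.73% of all genes were. The list had a median of -0.02, and none of its genes was past the threshold in the fit with only the 6 arrays. FCGBP, a large mucus protein that binds mucins, is not in this list. It measured 8.95, 8.72 and 8.17 at 5 weeks, against 9.72, 9.93 and 10.01 at 3 weeks. FCGBP fell by 1.28 ± 0.15 (adjusted p = 2.61e-06), the largest fall of a called gene, and passed in the limma fit with only the 6 arrays (adjusted p = 0.038). MUC5B, a gel-forming airway mucin, measured 11.99, 11.85 and 11.32 at 5 weeks, against 12.62, 12.71 and 12.71 at 3 weeks, and fell by 0.96 ± 0.14 (adjusted p = 5.99e-05). For both genes replicate 3 at 5 weeks was the lowest of the 6 arrays. MUC5B also fell in CSE 5% cells by 0.76 and in CSE 10% cells by 1.21, with a change of -0.32 in control cells (adjusted p = 0.0523). PGM2L1, which makes sugar bisphosphates, measured 6.70, 7.40 and 7.73 at 5 weeks and 8.69, 8.34 and 7.81 at 3 weeks, so that its groups came within 0.1 of each other (SE of the difference 0.20, adjusted p = 0.00234).

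In the matrix and its receptors, 3 of 13 laminin and basement membrane genes, 3 of 28 collagens and 3 of 17 integrins were lower. None were higher, where 3.21% of all genes were lower and 2.73% higher. Of collagens 1 was lower without replicate 2 or 3 of either week, and of laminins 5 were lower without replicate 1 at 5 weeks. The laminin chain LAMB3 fell by 0.63, LAMA5 by 0.50 and the proteoglycan HSPG2 by 0.68. The laminin receptor subunits ITGA6 and ITGB4 fell by 0.56 and 0.54. LAMA5 (adjusted p = 0.0776) and ITGB4 (adjusted p = 0.0898) did not pass without replicate 3 at 5 weeks, nor ITGA6 without replicate 1 at 5 weeks (adjusted p = 0.0826) or at 3 weeks (adjusted p = 0.0846). FN1, fibronectin, measured 10.89, 10.86 and 10.50 at 5 weeks and 11.31, 11.46 and 11.59 at 3 weeks (-0.70 ± 0.10, adjusted p = 8.13e-05). FN1 fell by 1.62 in control cells, so that its excess over control cells was 3.02 at 5 weeks and 2.10 at 3 weeks. TGFB1 measured 8.88, 8.39 and 8.05 at 5 weeks, against 8.89, 9.17 and 9.41 at 3 weeks; the arrays nearest to each other all but met, and TGFB1 fell by 0.72 ± 0.15 (adjusted p = 0.0035). The change of TGFB1 was -0.74 from that in control cells (adjusted p = 0.0155) and did not pass against CSE 5% (-0.72, adjusted p = 0.341) or CSE 10% cells (-0.77, adjusted p = 0.166). The epithelial cadherin CDH1 (-0.26, adjusted p = 0.0515), the intermediate filament VIM (0.15, adjusted p = 0.312) and the integrin ITGAV (-0.42, adjusted p = 0.295) did not pass. A fit with only the 6 arrays, which has fewer degrees of freedom, gave TGFB1 an adjusted p of 0.199, against 0.0143 for NR4A1 and KLF4.

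CCL2, the monocyte-attracting chemokine, had the largest rise among the called genes that encode neither a small RNA, a histone nor an olfactory receptor. CCL2 measured 10.50, 10.54 and 10.41 at 5 weeks, against 9.04, 8.92 and 9.39 at 3 weeks, a 2.58-fold rise with no overlap (1.37 ± 0.15, adjusted p = 1.53e-06). It had measured 7.80, 7.63 and 7.92 at 1 week, so each interval brought a gain, of 1.33 by 3 weeks and 1.37 by 5 weeks. Between 3 and 5 weeks CCL2 rose by 0.85 in CSE 5% and 0.66 in CSE 10% cells and changed by -0.29 in control cells (adjusted p = 0.116). Its change in CSE 1% cells exceeded that of control cells by 1.65 (adjusted p = 5.54e-05), while the differences from CSE 5% (0.52, adjusted p = 0.7) and CSE 10% (0.71, adjusted p = 0.27) did not pass. At 5 weeks CCL2 averaged 10.49 ± 0.07 in CSE 1% cells, against 11.92 ± 0.11 in CSE 5%, 10.93 ± 0.17 in CSE 10% and 6.88 ± 0.47 in control cells.

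Of 20 other chemokines, a list that leaves out CCL2, 3 were higher and none lower, where 2.73% and 3.21% of all genes were. Only 1 was higher without replicate 3 at 5 weeks or without replicate 3 at 3 weeks. In control cells 11 of the 20 were higher and 1 lower, where 28.3% and 27.8% of all genes were. CXCL1 and CXCL8, which attract neutrophils, rose by 0.49 (adjusted p = 0.00468) and 0.52 (adjusted p = 0.0166), and CXCL8 did not pass without replicate 3 at 5 weeks (adjusted p = 0.139) or without replicate 3 at 3 weeks (adjusted p = 0.103). CCL20, with a change of 0.56 (adjusted p = 0.0464), kept its call in 5 of the 15 alternatives run. CYP1A1, the aryl hydrocarbon receptor target that oxidises polycyclic hydrocarbons, measured 6.15, 6.48 and 6.20 at 5 weeks and 5.52, 5.62 and 5.57 at 3 weeks, with no overlap (0.71 ± 0.13, adjusted p = 0.00077), and was the only one of 9 genes of the aryl hydrocarbon receptor list to pass. In the other cells CYP1A1 changed by 0.19 in CSE 5%, -0.06 in CSE 10% and -0.03 in control cells. TXNIP, a glucose-responsive arrestin, rose by 0.50 (adjusted p = 0.000499) in CSE 1% cells, against -0.32 in CSE 5%, -0.29 in CSE 10% and 0.79 in control cells. Neither CYP1A1 nor TXNIP was among the 21 genes whose change differed from that in all of the other cells.

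Small RNA genes made up most of the called higher genes. RNU5D-1, a U5 RNA of the spliceosome, measured 8.64, 7.78 and 7.73 at 5 weeks, against 4.41, 4.25 and 5.36 at 3 weeks (3.38 ± 0.38, adjusted p = 1.61e-06). VTRNA1-1, an RNA of the vault particle, measured 7.85, 7.02 and 7.20 at 5 weeks, against 4.72, 4.47 and 4.95 at 3 weeks (2.64 ± 0.31, adjusted p = 3.14e-06). SNORA20, which guides pseudouridylation, measured 11.12, 10.35 and 10.57 at 5 weeks, against 7.55, 8.05 and 8.77 at 3 weeks (2.56 ± 0.33, adjusted p = 1.57e-05). For each of these genes replicate 1 was the highest array at 5 weeks, and no values overlapped. At 1 week they had been near or above the level of 5 weeks: RNU5D-1 measured 7.39, 7.98 and 7.22, VTRNA1-1 7.77, 8.29 and 7.88, and SNORA20 10.90, 11.03 and 10.81, so the 3-week arrays were the low ones of the series of weeks.

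By class, 26 of 176 small nucleolar RNA genes, 4 of 16 Cajal body RNA genes, 7 of 15 spliceosomal RNA genes and 2 of 3 vault RNA genes were called higher. Over all genes the share was 0.309%. Copies of SNORD116 supplied 10 of the 26. These copies, and the spliceosomal RNA genes, are close to each other in sequence, so that probes may read more than one of them and the counts within a family are uncertain. RMRP, the RNA of the RNase MRP complex, was called as well, at 1.19. By the adjusted p, 52 of the 192 small nucleolar and Cajal body RNA genes were higher and 2 lower, with a median of 0.26. Over all genes 2.73% were higher and 3.21% lower.

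Histone genes rose with them: 12 of 56 were called, and 31 were higher by the adjusted p with none lower, at a median of 0.72. Over all genes 0.309% were called higher, and by the adjusted p 2.73% were higher and 3.21% lower. H2BC3, which encodes a histone H2B, measured 9.27, 8.75 and 8.50 at 5 weeks, against 6.25, 6.94 and 7.48 at 3 weeks (1.95 ± 0.26, adjusted p = 2.43e-05). The linker histone gene H1-5, called at 1.66, and the H3 gene H3C12, at 1.55, followed. The histone genes of a class share most of their coding sequence and may not always be read apart. The count of higher histone genes was 17 without replicate 1 at 3 weeks, 20 without replicate 1 at 5 weeks, and 5 in the fit with only the 6 arrays.

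The promoter of H2BC3 is shown with the elements typical of such genes. The octamer ATTTGCAT, read on both strands, was present in 23 of 51 histone promoters given (45.1%), in 10 of the 26 that belong to higher histone genes (38.5%) and 13 of the 25 others (52%), and in 1.77% of all promoter windows. TATAAA was present in 66.7% of histone promoters and 11.5% of all, and CCAAT in 84.3% of histone promoters and 34.6% of all; none of the letters searched overlaps another in the sequence shown. The sequence is the 250 bases before the start of H2BC3, chr6:26043714-26043963 on the minus strand of GRCh38.p14, from RefSeq, with matches on either strand to the octamer (120 bases before the start), CCAAT and TATAAA in capitals.
H2BC3 promoter: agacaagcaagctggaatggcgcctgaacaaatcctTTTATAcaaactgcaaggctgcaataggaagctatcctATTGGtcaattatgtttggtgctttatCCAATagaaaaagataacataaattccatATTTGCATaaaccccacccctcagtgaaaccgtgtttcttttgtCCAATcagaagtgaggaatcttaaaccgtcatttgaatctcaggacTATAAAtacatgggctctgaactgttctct

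The rise of these genes was shared with the other cells. Of the 57 called genes, 54 were also higher by the adjusted p in control cells, 16 in CSE 5% and 47 in CSE 10% cells, where the background was 28.3%, 0.668% and 2.41% of genes. All 57 had a positive change in CSE 5% and in CSE 10% cells and 56 in control cells, CCL2 being the exception. Among the 51 small RNA and histone genes, RNU5E-1 alone had a change that differed from that in control cells (1.07, adjusted p = 0.0481). By the adjusted p, 208 higher genes were shared with CSE 10% cells (41.4% of those in CSE 1% and 47.0% of those in CSE 10%), 55 with CSE 5% (10.9% and 44.7%) and 231 with control cells (45.9% and 4.44%). Of the lower genes, 120 were shared with CSE 10% cells (20.3% and 24.4%; 2.67% of all genes were lower there), 21 with CSE 5% cells (3.55% and 34.4%; 0.331% of all genes) and 309 with control cells (52.2% and 6.04%; 27.8% of all genes).

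The level of histone genes on single arrays moved opposite to that of very long mRNAs, a list taken here as a marker of RNA quality. Taken as the median over members of the value minus the mean over the 36 arrays, the histone genes stood at 0.85, 0.57 and 0.33 in replicates 1 to 3 at 5 weeks, against -0.48, -0.12 and 0.20 at 3 weeks. The very long mRNA genes stood at -0.65, -0.09 and 0.27 on the same arrays at 5 weeks, against 0.55, 0.28 and -0.27 at 3 weeks. The histone levels did not overlap between weeks and the levels of the long mRNAs did, and on these 6 arrays a lower level of long mRNAs went with a higher level of histone genes within each week. The small nucleolar RNA genes stood at 0.33, 0.01 and 0.02 at 5 weeks, against -0.22, -0.22 and -0.11 at 3 weeks. Of 54 very long mRNA genes, 8 were lower and none higher, where 3.21% and 2.73% of all genes were, and 52 had a negative change. The count of lower ones was 17 without replicate 3 at 5 weeks, 5 without replicate 2 and 15 without replicate 3 at 3 weeks. In control cells 51 of the 54 were lower and 1 higher, where 27.8% and 28.3% of all genes were. The part of RNA quality in the change of these lists was not tested.

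**Figure D5:**
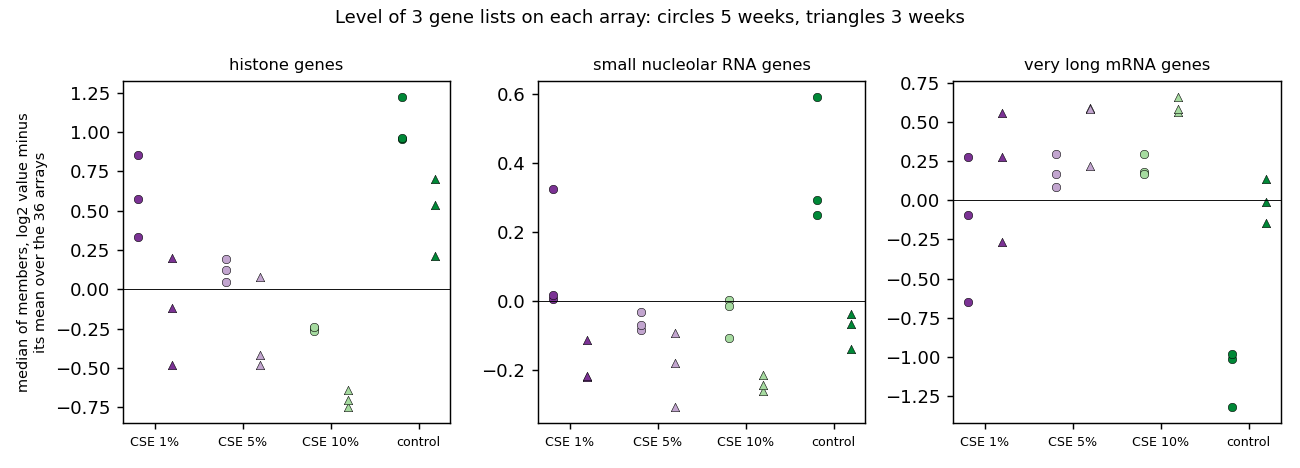
Level of histone genes, small nucleolar RNA genes and very long mRNA genes on each array at 5 weeks (circles) and 3 weeks (triangles) of CSE 1%, CSE 5%, CSE 10% and control cells; the y axis is the median over members of the log2 value minus its mean over the 36 arrays. In CSE 1% cells the histone genes lie at 0.33 to 0.85 at 5 weeks and at -0.48 to 0.20 at 3 weeks, and the very long mRNA genes overlap between weeks.

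Length on the genome showed a gradient as well, in a division made after the data were seen. The small RNA, histone and olfactory receptor genes were not set apart in it, so it is no separate result. The 18389 genes with a known length were cut into 5 groups of like size. In the group of the shortest genes (median 2.72 kb), 235 were higher and 38 lower, with a median change of 0.04. In that of the longest (median 154 kb) 36 were higher and 227 lower, with a median of -0.05. In control cells the median change was 0.23 in the shortest and -0.15 in the longest group. These medians were 0.05 and -0.03 in CSE 5% cells and 0.01 and -0.07 in CSE 10% cells.

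Ribosomal protein genes and genes of the mitochondrial respiratory chain moved up by small amounts. Of 66 ribosomal protein genes, 19 were higher and none lower, with a median of 0.18. Beside this and the 2 lists that follow, 2.73% of all genes were higher and 3.21% lower. RPL10A measured 10.91, 10.99 and 10.93 at 5 weeks, against 10.36, 10.33 and 10.53 at 3 weeks (0.54 ± 0.08, adjusted p = 8.02e-05). Of 35 oxidative phosphorylation genes 7 were higher and 1 lower, among them the cytochrome oxidase subunit COX5B at 0.85 (adjusted p = 0.00833, and 0.0703 without replicate 1 at 3 weeks). From 1 to 3 weeks the median change had been -0.35 for the ribosomal and -0.47 for the oxidative phosphorylation genes. In CSE 10% cells 11 of the 66 ribosomal genes were higher and none lower, where 2.41% and 2.67% of all genes were. In CSE 5% cells 1 was higher, and in control cells 13 were higher and 12 lower. Genes of mitosis followed, with 7 of 65 higher and none lower. KIF20A, a kinesin of cytokinesis, measured 9.48, 9.53 and 9.53 at 5 weeks and 8.67, 8.83 and 9.11 at 3 weeks (0.64 ± 0.13, adjusted p = 0.00251), CCNB2 rose by 0.60 and CCNB1 by 0.55, both cyclins of mitotic entry. In CSE 5% cells 10 and in CSE 10% cells 16 of the 65 were higher, where 0.668% and 2.41% of all genes were. In control cells, by contrast, 45 were lower and none higher, where 27.8% and 28.3% of all genes were. The count of mitosis genes was 4 without replicate 1 or without replicate 2 at 3 weeks, 1 in the fit with only the 6 arrays and 13 with centring on housekeeping genes. That of ribosomal genes was 12 without replicate 1 at 3 weeks and 2 in the fit with only the 6 arrays, and that of oxidative phosphorylation genes was 4 without replicate 1 or 3 at 5 weeks and without replicate 1 or 2 at 3 weeks.

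Of 341 olfactory receptor genes, which are silent in most tissues outside the nose, 19 were higher and none lower, led by OR4K2, which measured 5.62, 5.75 and 6.63 at 5 weeks against 4.35, 4.19 and 4.18 at 3 weeks (1.76 ± 0.35, adjusted p = 0.00223). The count was 2 without replicate 3 at 5 weeks, 10 without replicate 1 at 3 weeks and 8 without replicate 3 at 3 weeks. In CSE 1% cells 2.73% of all genes were higher. In control cells 301 of the 341 were higher between the same weeks, against 28.3% of all genes.

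Of 189 microRNA genes on the array, 3 were higher and 2 lower, where 2.73% and 3.21% of all genes were, and the omission of any array other than replicate 3 at 5 weeks left 0 or 1 of the higher ones. MIR222, on the X chromosome, measured 5.03, 5.36 and 5.33 at 5 weeks, against 6.12, 6.00 and 5.60 at 3 weeks (-0.66 ± 0.14, adjusted p = 0.00263), with no overlap. Its neighbour MIR221 had a change of -0.71 that did not pass (adjusted p = 0.06); it was named after its values were seen, because both genes give a mature RNA with the same seed, bases 2 to 8, shown in capitals. The arrays read the precursor region and not the mature RNA. The sequences are those of RefSeq on GRCh38.p14, at chrX:45747036-45747056 and chrX:45746180-45746202 on the minus strand.
hsa-miR-222-3p: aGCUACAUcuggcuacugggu
hsa-miR-221-3p: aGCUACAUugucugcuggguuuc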

How the data were processed

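RNA of A549 cells was hybridised to Human Gene 1.0 ST arrays. Background correction, normalization between arrays and a summary per transcript cluster were done by the authors with RMA. The values they deposited are on the log2 scale and were analysed as they stand. According to the submitters' notes on processing, R 2.11.0 was used with RMA and limma. The genome build they used was not given in the sources used here. This normalization makes the arrays alike in distribution, so that a shift of most genes in one direction is lost. Values lay between 2.29 and 14.5, and the highest correlation of 2 arrays was 0.9963, so that none was a copy. Precision is limited by the 3 arrays per group.

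Of the 33297 transcript clusters, the platform annotation gave 19460 a single gene symbol, 1754 several and 12083 none, and clusters with several symbols named no gene. The 769 genes with more than 1 cluster were represented by the brightest. Of 18 genes listed from the study, 17 were analysed here.

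Means of the 12 groups were estimated from all 36 arrays in limma 3.58.1 (R 4.3.3), with 24 residual and 3.91 prior degrees of freedom, the prior proportion of changed clusters being 0.01. A gene entered a count if its log2 fold change passed 1 in size with B over 0. Single genes were judged by the Benjamini-Hochberg adjusted p, under 0.05 across the whole array. Differences in change between cells were tested as interactions. The comparison and gene lists were chosen with earlier results of these data known. Named are 189 genes: those the study names, up to 15 called genes per direction with the largest fold change and no overlap, the 4 members or fewer of any list that passed with the lowest p, and up to 5 per direction that differ most from control cells. Others are said to be chosen after their values were seen.

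Alternatives were an upper B of 3, the adjusted p as a replacement for B, a fit of the compared groups alone, replicate number as a block (fixed or random), a filter that keeps the brightest 60% of clusters, loess, repeated quantile or housekeeping normalization, weights for arrays, eBayes with trend and robust settings, averaged clusters, and the omission of each array. Added after the data were seen were the mean of CSE 5% and CSE 10% cells as a replacement for control cells and the division by gene length. The steps were tested on simulated data. Motifs were searched on both strands of RefSeq promoter windows.

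Same-numbered replicates were not paired: the correlation of their deviations from the group means was -0.59, -0.17 and -0.58 for replicates 1, 2 and 3.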

Additional observations from a re-analysis of the deposited data

Results flagged for a closer look

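For the genes below the difference between 5 and 3 weeks in CSE 1% cells was unlike that in other cells, by the interaction term of limma. All values are differences in log2 fold change, CSE 1% minus the other cells. Among the named genes, those with a difference over 1 in size and B over 0 are given: 21 against control, 4 against CSE 5% and 13 against CSE 10% cells. By the adjusted p alone, over all genes, 7 had a greater and 33 a smaller change than in CSE 5% cells, among them INSIG1 (-0.98) and KLF4 (-0.97).

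Against CSE 5% cells the differences of 4 genes were negative: DHRS9 (-1.31), NR4A1 (-1.26), NR4A2 (-1.22) and RAB3B (-1.02). Against CSE 10% cells these genes also differed: DHRS9 (-2.03), NR4A2 (-1.50), RAB3B (-1.36) and NR4A1 (-1.29). Negative in that comparison were also KLF4 (-1.38), TSPAN5 (-1.33), the acyltransferase GPAT3 (-1.22), PLEK2 (-1.13), EGR1 (-1.06), HBEGF (-1.01) and GEM (-1.01), while PRR15L (1.19) and the adhesion protein CEACAM5 (1.00) had positive differences. The control arrays do not enter these differences, but they enter the shared estimate of error.

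Against control cells the differences rest on the 5-week control arrays, whose labels conflict and which stand apart. Negative were EGR1 (-1.93), DNM1P46 (-1.84), JUN (-1.60), CEMIP (-1.47), FAM86B2-DT (-1.43), NR4A1 (-1.41), DHRS9 (-1.38), PTGS2 (-1.17), FCGBP (-1.10), HBEGF (-1.10), ATF3 (-1.08), GEM (-1.06) and FOS (-1.03). Positive were those of the mitotic kinesin KIF11 (1.93), ESCO2 (1.89), SCRN3 (1.87), HLTF (1.85), the mitotic kinase TTK (1.82), CCL2 (1.65), the RNA sensor RIGI (1.46) and the Wnt receptor FZD6 (1.24). In CSE 1% cells themselves 8 of these genes did not pass between 5 and 3 weeks: DNM1P46, FAM86B2-DT, KIF11, ESCO2, SCRN3, HLTF, TTK and FZD6, with changes of 0.07 (HLTF) to 0.44 (ESCO2) and adjusted p of 0.415 or more. The part of the control arrays in these differences was not tested.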

How the results depend on the processing

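A change of sign was counted only where the fit of all arrays or the alternative passed the adjusted p. By this count none of the 210 single genes followed through the alternatives changed sign. Of these, 188 passed the adjusted p, 112 of them in each of the 6 fits that left out 1 array of CSE 1% cells, and 51 in the fit with only the 6 arrays, which has fewer degrees of freedom. That fit also left 69 of 503 higher and 43 of 592 lower genes past the adjusted p, and 38 in place of 354 genes with a greater change than control cells. This last count was 204 with centring on the housekeeping genes, 107 with B above 3 and 618 with the adjusted p in place of B, and the 27 genes with a smaller change became 53 with that centring and 16 with B above 3. With the mean change of CSE 5% and CSE 10% cells in place of that of control cells, 14 genes were called in either direction in place of 381. Genes higher made up 45.9% of those past the adjusted p, 46.0% with cyclic loess and 51.4% with a further quantile normalization, but 63.6% (707 higher and 405 lower) with the housekeeping centring, which moved the median change from -0.01 to 0.04.

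With single arrays left out, genes called higher ran from 42 to 71 and lower from 5 to 19, genes higher by the adjusted p from 297 to 490 and lower from 361 to 690. Genes with a greater change than control cells ran from 99 to 976 and with a smaller one from 22 to 39, and genes with a change different from CSE 5% from 3 to 9 and from CSE 10% from 19 to 32. The replicate block gave 56 genes called higher, 7 lower, 482 higher and 546 lower by the adjusted p, and the pairing of numbers it assumes was not borne out. With this replicate block 314 genes had a greater and 27 a smaller change than control cells, and 4 and 31 differed from CSE 5% and CSE 10% cells. In the alternative with weights for arrays, CSE 1% replicates 1 to 3 had weights of 0.42, 2.13 and 0.53 at 5 weeks. Those at 3 weeks had weights of 0.51, 1.42 and 0.66, a lower weight marking a more variable array. The cause of the shifts in these counts was not tested, including the drop in the fit with only the 6 arrays.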
